A study of Mus musculus with 4 samples.

Results

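The genes described here are 10 mouse genes that mark resident-like, alternatively activated macrophages, out of 43432 genes counted in tumour RNA. They were taken by name from the count table, all 10 were found, and 9 of them passed the filter on low counts that left 13823 genes for testing. The list was drawn up with the comparison of these same tumours in view, and Clec10a was chosen by its low p there, which ranked it 11 of the 13823. Differences between the groups in these 10 genes are therefore given as a description, with no test.

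Messenger RNA was sequenced from 4 subcutaneous tumours of 9464D-GD2, a neuroblastoma line, grown in female C57BL/6 mice. All 4 mice received dinutuximab, an antibody against the ganglioside GD2, at 25 µg a dose, 2 doses a week and 5 treatments in all. In 2 of the mice each dose also held 20 µg of small extracellular vesicles (sEVs), which the same tumour line had shed, and no tumour without the antibody enters the comparison. Both groups have a tumour 3 and a tumour 4 in the labels, which do not say what the numbers mean. Per the design text, the 2 tumours are biological replicates. The parent line 9464D comes from a mouse with a MYCN transgene, so all tumours stand for 1 cell line in 1 strain, and the age of the mice is not given in the sources used here.

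Resident-like macrophages are long-lived phagocytes of connective tissue and tumour stroma. Their surface lectins bind sugars on dying cells, glycoproteins and microbes, and their scavenger receptors take up modified proteins, haemoglobin complexes and matrix fragments for degradation. Interleukin-4 and interleukin-13, acting through the transcription factor STAT6, are the textbook inducers of several of these genes, and glucocorticoids and interleukin-10 induce others. Not every gene of the list is a lectin or scavenger receptor: Folr2 encodes a folate receptor, F13a1 a transglutaminase and Retnla a secreted protein.

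The lectin genes Clec10a and Mgl2 arose by duplication, and their sequences bear on how far their counts can be told apart. Both lie on the plus strand of chromosome 11 (GRCm38), Mgl2 (ENSMUSG00000040950) at 70130329 to 70137550 and Clec10a (ENSMUSG00000000318) at 70156197 to 70170834. The coding sequences of transcripts Mgl2-201 (999 bases) and Clec10a-202 (915 bases) were identical at 840 of 913 aligned bases, or 92.0%. The longest identical stretch is 183 bases, and a read that falls wholly inside it cannot be assigned to one gene. It is printed first, followed by the gap-free window of 90 aligned coding bases in which the genes differ at the most positions, with the 27 differing bases in capitals. The sequences run 5′ to 3′ and come from the GENCODE M21 transcripts.
Shared by Clec10a (coding bases 499 to 681) and Mgl2 (547 to 729): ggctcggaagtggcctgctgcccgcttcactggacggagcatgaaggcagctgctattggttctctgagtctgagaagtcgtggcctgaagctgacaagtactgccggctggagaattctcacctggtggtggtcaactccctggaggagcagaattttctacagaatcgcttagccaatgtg
Clec10a, coding bases 790 to 879: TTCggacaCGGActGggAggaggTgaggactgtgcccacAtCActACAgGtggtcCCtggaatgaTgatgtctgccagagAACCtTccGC
Mgl2, coding bases 838 to 927: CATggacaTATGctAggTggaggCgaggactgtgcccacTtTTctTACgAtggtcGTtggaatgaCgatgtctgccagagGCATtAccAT
Over all annotated transcripts, 287 of the 3181 different 50-base stretches of Clec10a (9.02%) and 289 of the 2205 of Mgl2 (13.1%) also occur in another gene. Within the coding sequences of the 2 transcripts the share found in the other gene was higher, 27.9% for Clec10a and 25.5% for Mgl2. The read length is not given in the sources used here, and 50 bases was chosen to describe the overlap. Reads from the remainder of each gene carry differences such as those in capitals.

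The mapping of the other genes was uneven in the same respect. Mrc1, Lyve1 and Retnla shared no 50-base stretch with another gene. Cd209f shared 646 of its 2168 stretches (29.8%) with its neighbour in the family, Cd209g. Folr2 (chromosome 7, 101839988 to 101857194, minus strand) shares 975 of its 1546 exon bases with Gm10602, a gene on the opposite strand that had between 6 and 10 counts in a library. The libraries were made with a stranded kit, per the labels' protocols, but whether the counting used the strand is not given in the sources used here. The Folr2 counts are therefore uncertain. Those of Cd209f are uncertain because of the sequence it shares with Cd209g.

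The 4 libraries held between 24452699 and 28187573 counts. Across all genes, edgeR's quasi-likelihood test called 0 genes higher with sEVs (0% of 13823) and 0 lower (0%) after Benjamini-Hochberg adjustment, with 0.360 as the lowest adjusted p. Before adjustment, 341 genes (2.47%) passed 0.05 as higher and 429 (3.1%) as lower. By limma-voom the calls were likewise 0 and 0, with 316 (2.29%) and 427 (3.09%) before adjustment. By DESeq2 there were 17 higher (0.123%) and 38 lower (0.275%), with 262 (1.9%) and 398 (2.88%) before adjustment. Clec10a and Mgl2 were among the DESeq2 calls, in the same contrast on which the list was chosen.

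Of the 9 tested genes, 8 had a positive log2 fold change of sEVs over dinutuximab alone and 1 a negative one, against 50.3% and 49.7% of all tested genes. The median was 0.39 (range -0.05 to 1.15), against 0.0015 over all tested genes. In 5 of the 9, namely Clec10a, Mgl2, Mrc1, Folr2 and Stab1, both sEV tumours lay above both dinutuximab tumours, an arrangement found in 18.1% of all tested genes, and in 0 of the 9 did both lie below (16.5% of all tested genes). These counts are descriptive, since the genes were chosen with the comparison known. In bulk tumour RNA, more cells of a type and more RNA per cell cannot be told apart. Levels are in CPM, the counts of a gene relative to the scaled total of its library, and SD is the spread over tumours. SE is an approximate standard error of the log2 fold change. It was derived as the absolute log2 fold change divided by the square root of the F value of the quasi-likelihood test.

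**Figure D1:**
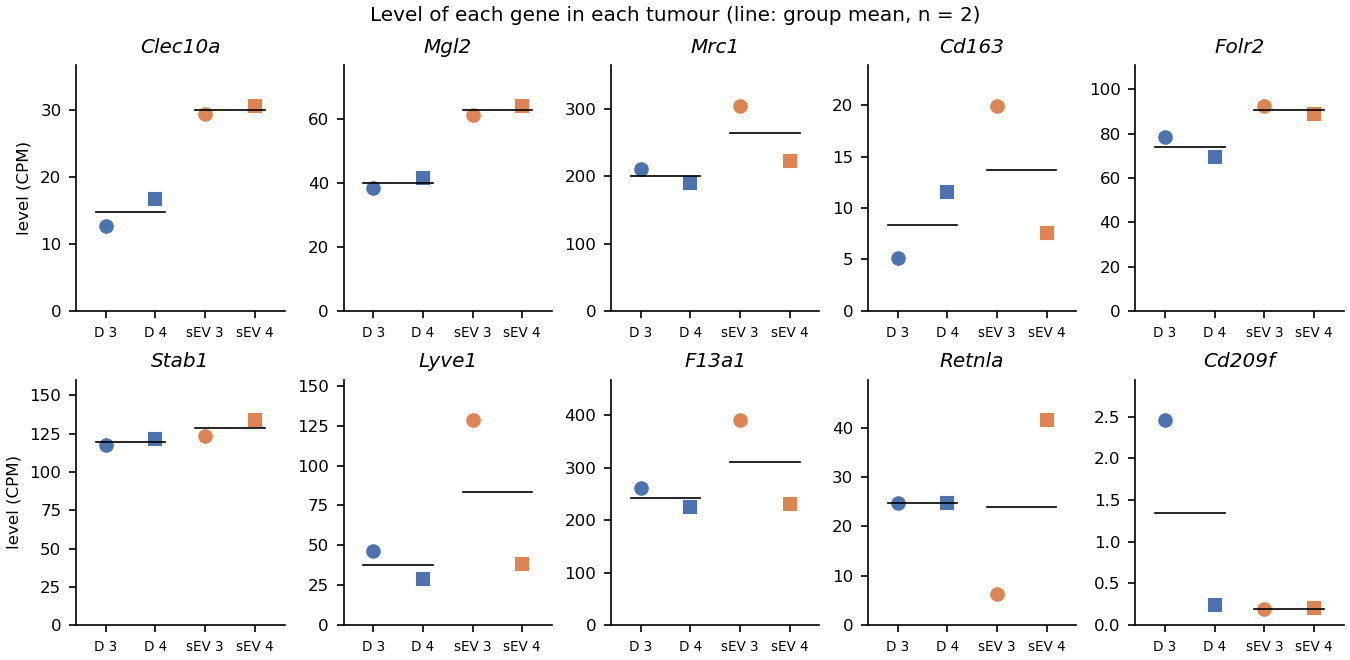
Level of each of the 10 genes in CPM (y axis, from 0, own scale per gene) in the 4 tumours (D, dinutuximab; sEV, dinutuximab plus sEVs; number, tumour number), with a line at the group mean. For Clec10a and Mgl2 the tumours of a group lie nearer to each other than to the other group. Lyve1 and Cd163 are highest in sEV tumour 3, where Retnla is lowest.

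The galactose-type lectins Clec10a and Mgl2 were about 2.04 and 1.57 times as high, on the mean, with added sEVs. For both, the tumours of a group lay nearer to each other than to the other group. The ratio of dinutuximab tumour 3 to 4 was 0.762 for Clec10a and 0.928 for Mgl2. Clec10a, whose product binds sugars on glycoproteins, stood at 12.7 and 16.7 CPM in the dinutuximab tumours 3 and 4. In the sEV tumours 3 and 4 it stood at 29.4 and 30.5 CPM. Both sEV values lay above both dinutuximab values. The SD was 2.80 CPM around a mean of 14.7 with dinutuximab and 0.770 CPM with added sEVs, and the log2 fold change was 1.03 ± 0.18 (SE). Mgl2, its paralogue, stood at 38.4 and 41.4 CPM with dinutuximab and at 61.2 and 63.8 CPM with added sEVs. The Mgl2 groups did not overlap either, and the log2 fold change was 0.65 ± 0.13 (SE). Whichever tumour was left out, the value lay between 0.85 and 1.24 for Clec10a and between 0.60 and 0.70 for Mgl2.

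Mrc1 encodes the mannose receptor CD206, a lectin that clears mannose-bearing glycoproteins and collagen fragments. Its gene (chromosome 2, 14229392 to 14332057, plus strand) stood at 211 and 190 CPM with dinutuximab and at 304 and 223 CPM with added sEVs. The groups did not overlap, with sEV tumour 3 well above the other 3, and the log2 fold change was 0.39 ± 0.17 (SE). Without sEV tumour 3 the value was 0.14.

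Cd209f, a gene of the DC-SIGN lectin family (chromosome 8, 4102787 to 4105835, minus strand), was close to the limit of detection. It had 63 counts in dinutuximab tumour 3 and 6, 5 and 6 counts in dinutuximab tumour 4, sEV tumour 3 and sEV tumour 4. It did not pass the filter, and 1 tumour alone held most of its reads. Cd209g, with which it shares sequence, had 9, 1, 0 and 1 counts in the same order.

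Among the scavenger receptors, Stab1 was nearly level and Cd163 varied more between tumours of a group than between groups. Stab1 encodes stabilin-1, which takes up modified lipoproteins and extracellular matrix proteins. It stood at 118 and 122 CPM with dinutuximab and at 123 and 134 CPM with added sEVs, a log2 fold change of 0.10 ± 0.13 (SE). The Stab1 groups did not overlap, but the gap between them was smaller than the distance between the 2 sEV tumours. Cd163 encodes the receptor for haemoglobin bound to haptoglobin. It stood at 5.14 and 11.5 CPM with dinutuximab and at 19.9 and 7.56 CPM with added sEVs, so the groups overlapped. The log2 fold change of Cd163 was 0.72 ± 0.47 (SE), and without sEV tumour 3 it was -0.15.

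Lyve1, the hyaluronan receptor gene of perivascular macrophages and lymphatic vessels, had the largest fold change among the 9 tested genes and a wide spread. It stood at 46.4 and 28.7 CPM with dinutuximab and at 128 and 38.5 CPM with added sEVs. Only sEV tumour 3 was high, and sEV tumour 4 lay between the 2 dinutuximab tumours. The log2 fold change was 1.15 ± 0.47 (SE) with all tumours and 0.03 without sEV tumour 3. Among markers of lymphatic endothelium, the other source of Lyve1, Ccl21a and Tbx1 had 0 counts in every library, and Prox1, the defining transcription factor of that cell type, had 1 count in dinutuximab tumour 4 and 0 elsewhere. A count of 0 allows up to 3 counts in a library. Over the 7 lymphatic markers the summed level was between 6.43 and 12.4 CPM with dinutuximab and between 4.12 and 5.96 CPM with added sEVs, with most of it from Pdpn and Flt4, which other cells also express. Pdpn, the podoplanin gene, stood at 10.5 and 3.44 CPM with dinutuximab and 4.55 and 2.08 CPM with added sEVs (-1.08 ± 0.53, SE). Flt4, a growth factor receptor gene, stood at 1.87 and 2.91 CPM and at 1.34 and 2.01 CPM (-0.51 ± 0.38, SE). Both were highest in a dinutuximab tumour, and Lyve1 in sEV tumour 3. The part of lymphatic vessels in the Lyve1 values was not tested.

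Of the genes that are not receptors for sugars or waste, Folr2 was the steadiest. Folr2 encodes folate receptor beta, a surface marker of resident macrophages. It stood at 78.6 and 69.4 CPM with dinutuximab and at 92.4 and 89.1 CPM with added sEVs, without overlap, and its log2 fold change was 0.30 ± 0.13 (SE). F13a1 encodes the A subunit of coagulation factor XIII, which cross-links fibrin. F13a1 stood at 261 and 225 CPM with dinutuximab and at 390 and 232 CPM with added sEVs. Only sEV tumour 3 was high, the groups overlapped, and the log2 fold change of 0.35 ± 0.23 (SE) became -0.08 without sEV tumour 3. F13a1 is also carried by platelets, whose marker list held Gp6 at 0 counts in every library and Gp9 at no more than 3. The summed level of the 7 platelet markers, nearly all of it Pf4, was between 44.1 and 52.1 CPM with dinutuximab and 80.8 and 54.9 CPM in sEV tumours 3 and 4. Pf4, a chemokine gene, had 0.50 ± 0.19 (SE) and Gp1bb, a platelet receptor gene at between 1.01 and 2.02 CPM, 0.17 ± 0.46 (SE). The sum thus follows Pf4 and does not by itself measure platelets. The median of the 4 tested markers, 0.45, was 0.04 without sEV tumour 3. The part of platelets in the F13a1 values was not tested.

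Retnla, which encodes the secreted protein RELM-alpha and is a classic target of interleukin-4 and STAT6, went the other way in sEV tumour 3. It stood at 24.8 and 24.7 CPM with dinutuximab, the closest pair of the list, and at 6.34 and 41.5 CPM with added sEVs. The 2 sEV tumours enclosed both dinutuximab tumours, so the mean difference was near 0 (-0.05 ± 0.62, SE) and lay at 0.74 without sEV tumour 3 and at -1.96 without sEV tumour 4. In sEV tumour 3 the level of Lyve1 was 3.33 times, of Cd163 2.63 times, of F13a1 1.69 times and of Mrc1 1.36 times that in sEV tumour 4. For Retnla the same ratio was 0.153. Clec10a (0.964), Mgl2 (0.958), Folr2 (1.04) and Stab1 (0.922) were nearly equal in both sEV tumours.

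**Figure D2:**
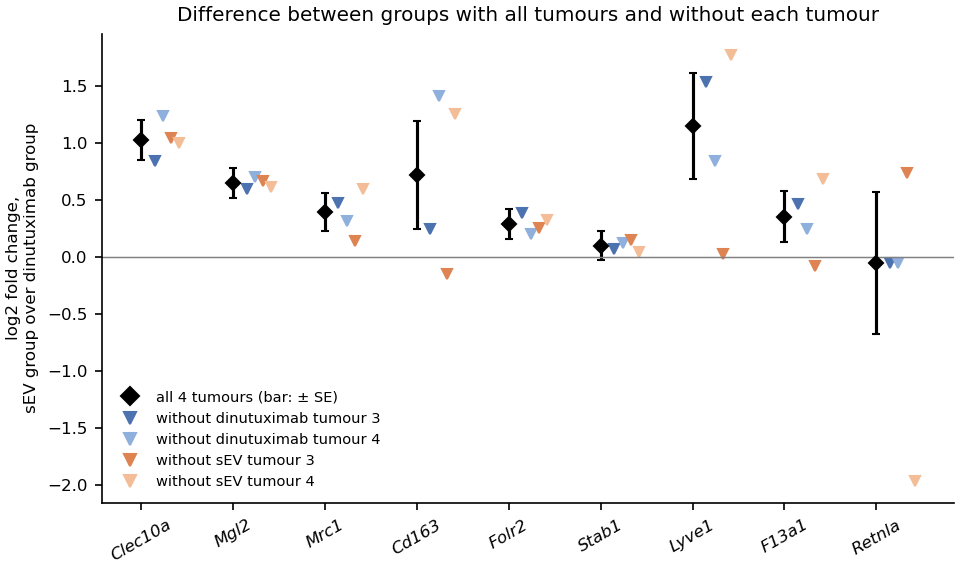
Log2 fold change of the sEV group over the dinutuximab group (y axis) for the 9 tested genes, with all 4 tumours (diamond, bar ± SE) and without each tumour in turn (triangles). Clec10a, Mgl2, Mrc1, Folr2, Stab1 and Lyve1 stay above 0 in every case, and Mgl2 and Stab1 move least. Lyve1, Cd163, F13a1 and Retnla move most when sEV tumour 3 or 4 is left out.

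The promoter of Retnla is printed because it is the gene of the list that differed most between the 2 sEV tumours, and because it held matches to all 4 motifs searched. RefSeq promoters (GRCm38) were found for 8 of the 10 genes, as 10 windows of 250 bases upstream of an annotated start, and there was none for Clec10a or Lyve1. Both strands were searched for the STAT6 motif TTCNNNNGAA, the PU.1 core GAGGAAG, the C/EBP core TTGCNNAA and the MAF motif TGCTGAC, whose letters do not overlap in the window shown. Matches are in capitals, and the window is on the plus strand at chr16:48842359-48842608.
Retnla promoter: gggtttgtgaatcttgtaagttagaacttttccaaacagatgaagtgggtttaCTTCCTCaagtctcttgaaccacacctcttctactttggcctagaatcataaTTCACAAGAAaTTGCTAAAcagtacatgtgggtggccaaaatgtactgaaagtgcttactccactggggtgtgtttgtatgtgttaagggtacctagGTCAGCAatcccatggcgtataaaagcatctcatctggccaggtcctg
The STAT6 motif occurred in 1 of the 10 windows, that of Retnla, and in 5.85% of 32851 RefSeq promoter windows of the same length. The C/EBP core (9.56% of all windows) and the MAF motif (3.81%) also occurred in the Retnla window alone. The PU.1 core, the recognition sequence of a factor that defines myeloid cells, occurred in 3 of the 10 windows, of Retnla, F13a1 and Mrc1, and in 10.6% of all windows. These matches describe the letters of the window and not binding.

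Compared per length of exon, the genes spanned a wide range of levels. Folr2 had the highest mean over the 4 tumours, 53.3 CPM per kb (range 44.9 to 59.8), followed by F13a1 at 41.1 (33.4 to 57.9), Retnla at 40.6 (10.6 to 69.3) and Mrc1 at 36.4 (29.8 to 47.7). Mgl2 stood at 24.4 CPM per kb (18.3 to 30.5), Lyve1 at 20.7 (9.85 to 44.0) and Stab1 at 12.1 ± 0.662 (SD). The ranges of neighbours in this order overlapped from Folr2 down to Stab1. Clec10a, at 7.70 CPM per kb (4.38 to 10.5), lay below Stab1 and above Cd163 (2.02, 0.942 to 3.64) without overlap with either. Cd209f came last at 0.390 CPM per kb (0.0961 to 1.24) and overlapped Cd163.

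**Figure D3:**
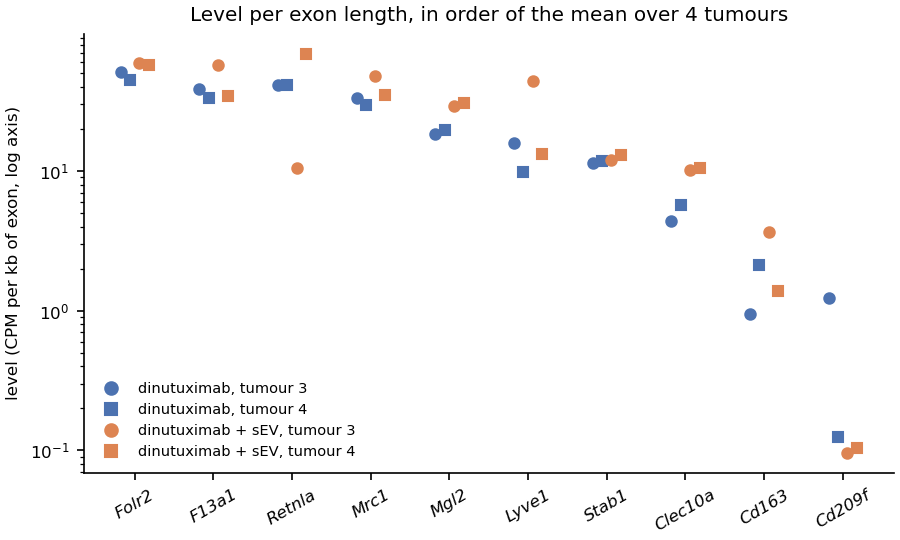
Level in CPM per kb of exon (y axis, log scale) of each gene in the 4 tumours, ordered by the mean, with colour for group and shape for tumour number. Folr2, F13a1, Retnla and Mrc1 have the highest means and Cd209f the lowest, and sEV tumour 3 stands apart from the other 3 tumours in Retnla and Lyve1.

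General macrophage genes were measured to set these values beside the macrophage signal of each tumour. All 16 passed the filter, among them Lyz2, which encodes lysozyme, at 811 and 1066 CPM with dinutuximab and 1267 and 1185 CPM with added sEVs, and Lgmn, a lysosomal protease gene, at between 473 and 560 CPM. Macrophage transcripts were thus present in every tumour. Of the 16, 14 had positive log2 fold changes (median 0.21), against 50.3% of all tested genes. By edgeR, 2 were higher at an unadjusted p under 0.05 (2.47% of all tested genes) and 0 were called. The mean log2 CPM of the 16 genes was 6.38 and 6.69 with dinutuximab and 6.73 and 6.85 with added sEVs, a difference of 0.25 with a pooled SD of 0.17 between tumours.

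Relative to that mean in the same tumour, Clec10a and Mgl2 were the 2 genes of the list whose sEV values lay above both dinutuximab values. The genes were chosen with the comparison known, and Clec10a by its low p in it, so the differences are descriptive. The share of all tested genes without overlap was not taken on this scale. Clec10a stood 2.71 and 2.63 log2 units below the macrophage mean with dinutuximab and 1.85 and 1.91 below it with added sEVs, a difference of 0.79 with a pooled SD of 0.05. For Mgl2 the difference was 0.40 with a pooled SD of 0.10. Mrc1 (0.13), Folr2 (0.05) and F13a1 (0.06) differed by less than the pooled SD between tumours and their groups overlapped. Cd163 (0.41), Lyve1 (0.69) and Retnla (-0.86) also differed by less than the pooled SD, which was 0.86, 1.05 and 1.30. Stab1 lay slightly lower, with a difference of -0.15 and a pooled SD of 0.13, and its groups did not overlap.

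**Figure D4:**
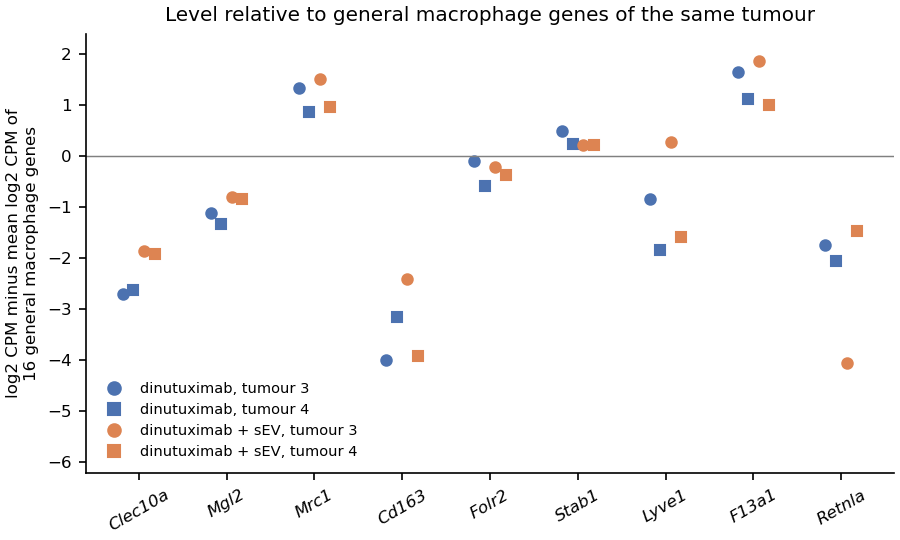
Log2 CPM of each of the 9 tested genes minus the mean log2 CPM of 16 general macrophage genes in the same tumour (y axis), with colour for group and shape for tumour number. The Clec10a and Mgl2 points of the sEV tumours lie above those of the dinutuximab tumours, and the groups overlap for Mrc1, Cd163, Folr2, Lyve1, F13a1 and Retnla.

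Most tested genes of the related macrophage, lectin and scavenger receptor lists had positive values, over a wide range, and edgeR called none. Across all lists of related genes and cell type markers 172 genes were tested besides the 10. Among these, edgeR called 0 higher and 0 lower. At an unadjusted p under 0.05 there were 25 and 19, against 2.47% and 3.1% of all tested genes. By limma-voom 0 and 0 of the 172 were called (23 and 20 unadjusted, against 2.29% and 3.09% of all tested genes). DESeq2 called 1 higher, Hp, and 4 lower, namely Col1a2, Egr1, Atf3 and Gm26917, against 0.123% and 0.275% of all tested genes. Its unadjusted counts were 24 and 15, against 1.9% and 2.88%. The lists were chosen with earlier results known. Of 20 other alternatively activated or resident macrophage genes 18 were tested, 15 positive and 3 negative (median 0.24). Selenop, the selenoprotein P gene, had 0.37 ± 0.20 (SE) and Fcgrt, the neonatal Fc receptor gene, 0.25 ± 0.13 (SE). The list ran from -0.65 to 1.23, the highest being Vsig4, a complement receptor gene of resident macrophages. Vsig4 stood at 1.95 and 1.80 CPM with dinutuximab and 6.65 and 2.22 CPM with added sEVs. The 3 negative genes were Pdcd1lg2 (-0.65 ± 0.57, SE), Arg1 (-0.11 ± 0.34, SE) and Igf1 (-0.11 ± 0.34, SE). Arg1 stood at 206 and 123 CPM with dinutuximab and 207 and 98.1 CPM with added sEVs. Of 22 other C-type lectins, not all of them confined to myeloid cells, 12 were tested, 10 positive and 2 negative (median 0.26). The Mrc1 relative Mrc2 had 0.08 ± 0.18 (SE) and Clec4n, which encodes dectin-2, 0.22 ± 0.17 (SE). Of 14 other scavenger receptors 12 were tested, 10 positive and 2 negative (median 0.25), with Lrp1, a large endocytic receptor, at -0.06 ± 0.19 (SE) and Scarb1, the HDL receptor, at 0.16 ± 0.14 (SE). The scavenger receptors ran from -1.74 (Marco, ± 0.53, SE) to 1.79 (Olr1, ± 0.48, SE), both at under 5 CPM in every library. Vsig4, Pdcd1lg2, Arg1, Igf1, Marco and Olr1 are named for their values. With 1 tumour left out, the medians lay between 0.23 and 0.32 for the resident macrophage genes, 0.15 and 0.39 for the lectins and 0.16 and 0.42 for the scavenger receptors.

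Relatives and partners of the 10 genes were mostly silent. Of 15 such genes 6 were tested, 4 positive and 2 negative (median 0.15, and between 0.04 and 0.16 with 1 tumour left out), and Retnlb and F13b had 0 counts in every library. Cd44, the other main hyaluronan receptor, stood at 459 and 438 CPM with dinutuximab and 486 and 481 CPM with added sEVs (0.11 ± 0.12, SE), and the sheddase gene Adam17 had -0.16 ± 0.14 (SE). Hp, which encodes haptoglobin, the partner of haemoglobin in Cd163 uptake, was singled out after its values were seen. It stood at 3.82 and 3.28 CPM with dinutuximab and at 23.8 and 6.93 CPM with added sEVs (2.11 in log2 fold change), highest in sEV tumour 3, where Cd163 was also highest.

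The signals that are known to induce these genes were read from their ligands, receptors and transcription factors. Il13 had 0 counts in every library and Il4, named after its values were seen, had 1 count in dinutuximab tumour 3 and 0 elsewhere. Of 7 ligand genes, which also held Il33, Il34 and Tgfb1, 5 were tested, 4 positive and 1 negative (median 0.13, and between -0.07 without dinutuximab tumour 4 and 0.62 without dinutuximab tumour 3). Csf1, the growth factor of macrophages, had 0.32 ± 0.20 (SE) and Tgfb1 0.08 ± 0.16 (SE). All 12 receptor and signal transducer genes were tested, 8 positive and 4 negative (median 0.06, and -0.01 without dinutuximab tumour 3 or sEV tumour 4), with the glucocorticoid receptor gene Nr3c1 at -0.11 ± 0.17 (SE) and the kinase gene Jak1 at 0.09 ± 0.13 (SE). Il4ra, the interleukin-4 receptor gene, stood at 80.4 and 67.2 CPM with dinutuximab and 111 and 87.0 CPM with added sEVs (0.43 ± 0.16, SE), without overlap. Of 10 transcription factor genes 9 were tested, 3 positive and 6 negative (median -0.16, and between -0.39 and -0.06 with dinutuximab tumour 3 or 4 left out), with Klf4 at -0.05 ± 0.13 (SE) and Tcf4 at -0.17 ± 0.14 (SE). In 3 of the 9 the unadjusted p was under 0.05 and the groups did not overlap: Maf at 0.49 ± 0.14 (SE), Cebpb at -0.50 ± 0.14 (SE) and Egr2 at -0.83 ± 0.20 (SE). These 3 and Il4ra are named for their values, and edgeR called none of them after adjustment. Over all tested genes, 2.47% were higher and 3.1% lower at an unadjusted p under 0.05. The groups did not overlap in 18.1% (higher) and 16.5% (lower).

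Lists of other macrophage states and of other cell types were read beside the 10 genes. Lipid-associated and inflammatory macrophage genes were split, 6 positive and 5 negative of 11 tested (median 0.10, and -0.10 and -0.11 without sEV tumour 3 and 4 and -0.14 without the filter on low counts), with Apoe at 0.31 ± 0.24 (SE) and Cd9 at 0.11 ± 0.12 (SE). All 8 monocyte genes were tested, 7 positive and 1 negative. Their median was 0.62, and 0.20 without sEV tumour 3, 0.22 without dinutuximab tumour 4 and 1.06 without dinutuximab tumour 3. By edgeR 0 of them were called, and 2 were higher at an unadjusted p under 0.05, against 2.47% of all tested genes. Vcan, a proteoglycan gene of monocytes and stroma, had 0.50 ± 0.14 (SE) and Fn1, fibronectin, -0.09 ± 0.18 (SE). Ccr2, the chemokine receptor gene that defines inflammatory monocytes, named for its values, stood at 4.29 and 8.60 CPM with dinutuximab and 12.6 and 15.4 CPM with added sEVs (1.12 ± 0.31, SE), without overlap. Clec10a and Mgl2 are also expressed by dendritic cells, whose 10 markers summed to 8.15 and 17.4 CPM with dinutuximab and 9.89 and 12.7 CPM with added sEVs. Of these markers 4 were tested, 1 positive and 3 negative (median -0.17, and 0.44 without dinutuximab tumour 4, 0.39 without sEV tumour 3 and 0.06 without the filter), with Itgax at -0.14 ± 0.45 (SE) and Zbtb46 at -0.58 ± 0.42 (SE). The 9 blood and sinusoidal endothelial markers, of interest because sinusoidal endothelium expresses Stab1 and Mrc1, summed to between 129 and 139 CPM with dinutuximab and between 101 and 107 CPM with added sEVs, and all 8 tested were negative (median -0.33, and -0.17 without dinutuximab tumour 4). Pecam1, an adhesion gene of endothelium, had -0.36 ± 0.13 (SE) and Cdh5 -0.48 ± 0.21 (SE).

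**Figure D5:**
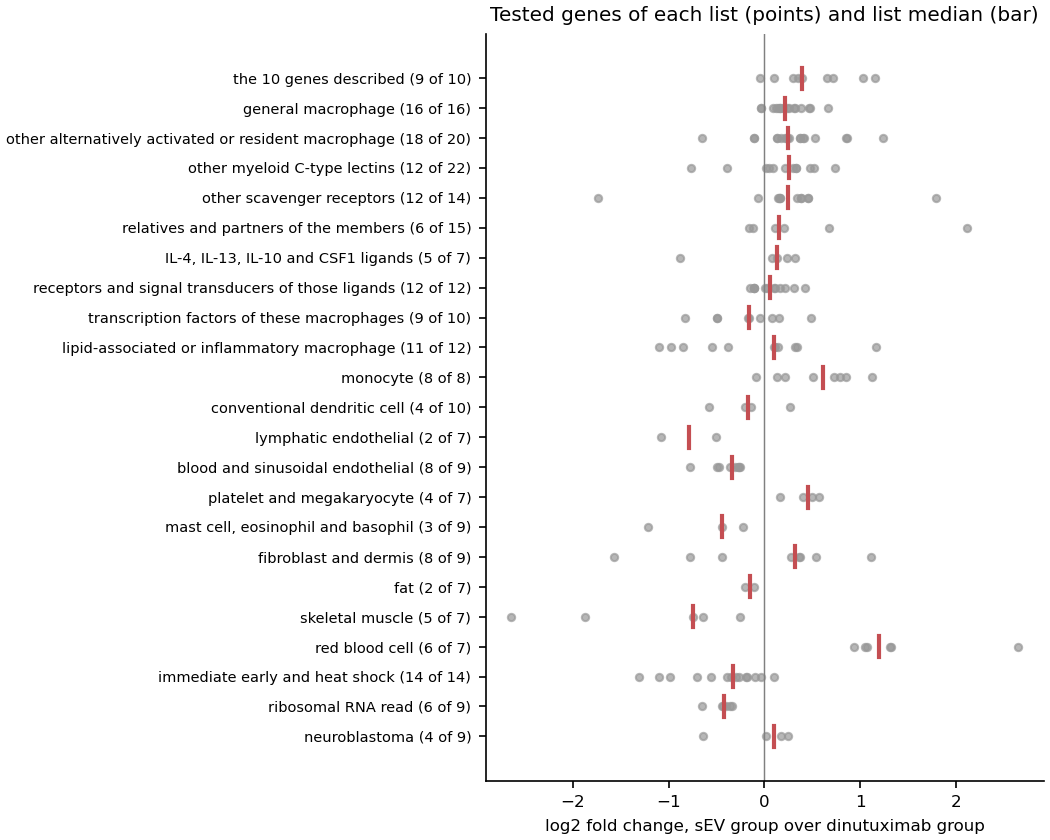
Log2 fold change of the sEV group over the dinutuximab group (x axis) for each tested gene (points) and the median of each list (bar), with the number tested of the number listed. The 9 tested genes of the list have a median of 0.39, general macrophage genes 0.21 and red blood cell genes 1.19, while endothelial and immediate early genes lie mostly below 0.

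Several other readings of the tumours differed between the groups in the same libraries. The red blood cell markers, 6 of 7 tested and all 6 positive (median 1.19, and 0.66 without sEV tumour 3), summed to 35.2 and 21.5 CPM with dinutuximab and 71.1 and 43.6 CPM with added sEVs, and none was at 0 throughout. The globin genes Hbb-bs and Hba-a1 had 0.94 ± 0.29 (SE) and 1.07 ± 0.33 (SE). The fibroblast and dermis markers, 8 of 9 tested with 5 positive and 3 negative (median 0.32, but 0.02 without dinutuximab tumour 3, 0.12 without sEV tumour 3 and 0.06 without sEV tumour 4), summed to between 628 and 632 CPM and to between 759 and 900.3 CPM, with Dcn, like Lyve1 and F13a1, highest in sEV tumour 3 at 482 CPM against between 261 and 289 CPM in the other 3. Col3a1, a collagen gene, had 0.37 ± 0.14 (SE). Genes of the immediate early and heat shock response, sensitive to how tissue is handled, were negative in 13 of 14 (median -0.32, and -0.49 without dinutuximab tumour 4), Jun at -0.19 and Junb at -0.39, with summed levels between 729 and 809 CPM and between 629 and 645 CPM. Genes to which ribosomal RNA reads map, 8 in the table, held a share of 5.70% and 5.95% in the dinutuximab libraries and 4.75% and 4.05% in the sEV libraries. All 6 tested were negative (median -0.42, and -0.25 without sEV tumour 4), with Gm42418 at -0.44 ± 0.12 (SE) and Lars2 at -0.40 ± 0.13 (SE). The part of these in the values of the 10 genes was not tested. Fat markers summed to between 27.6 and 33.2 CPM, nearly all of it Fabp4 (-0.11 ± 0.16, SE), with Cfd at -0.20 ± 0.74 (SE) and Plin1 and Lep at 0 counts. Mast cell and eosinophil markers summed to at most 4.14 CPM, with Epx and Prg2 at 0 counts, Kit at -1.22 ± 0.44 (SE) and Cma1 at -0.44 ± 1.02 (SE). Skeletal muscle markers summed to between 4.92 and 12.9 CPM, with Mylpf at -0.64 ± 0.34 (SE) and Tnnt3 at -0.75 ± 0.32 (SE). With 1 tumour left out, the medians of the fat markers (-0.15) and of the mast cell markers (-0.44) lay between -1.05 and 0.17 and between -1.77 and 1.86, and that of the muscle markers (-0.75) was -1.64 without dinutuximab tumour 3. Among neuroblastoma markers, Dbh, which encodes an enzyme of noradrenaline synthesis, had 0 counts in every library, while Hand2 stood at between 145 and 172 CPM and Mycn at between 133 and 162 CPM.

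By its pattern over the 4 tumours, Mgl2 was the gene of the list most like Clec10a. Likeness was measured as the root mean square distance between log2 CPM values centred on each gene's mean, among 10279 genes with a mean of at least 5 CPM. The nearest were Nnmt, which encodes nicotinamide N-methyltransferase (distance 0.142), Fam111a, a protease gene (0.163), Itga10, an integrin collagen receptor gene (0.164), Accs (0.175) and Lbp, which encodes lipopolysaccharide-binding protein (0.196). Mgl2 lay at 0.219, with 11 genes nearer, and Mrc1 at 0.420, with 789 nearer. Lyve1 (0.739), Cd163 (0.606) and Retnla (1.25) had 9809, 7645 and 10267 genes nearer. With 4 libraries this likeness is a description, and Clec10a and Mgl2 share sequence, as given above.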

How the data were processed

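Raw counts per Ensembl gene were deposited by the authors both in a joint table and in single-sample tables, and all 43432 values of each library were equal in both. STAR, SAMtools, HTSeq and the mm10 build are named, per the submitters' processing notes, with no versions, and the annotation release, counting mode and strand setting are not given in the sources used here. GENCODE M21 (GRCm38) gave a name to 42462 of the IDs and none to 970. The counts, between 24452699 and 28187573 per library, were filtered with filterByExpr, scaled with TMM factors (0.976 to 1.02) and tested with edgeR 4.0.16 in R 4.3.3 (quasi-likelihood, group as the only term, Benjamini-Hochberg threshold 0.05). DESeq2 1.42.0, limma-voom (limma 3.58.1), 3 other scalings, 2 other filters, the tumour number as a block and leaving out each tumour were alternatives. log2 CPM used a prior count of 2. The test was tested on simulated data.

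The 10 genes and the 22 lists beside them were chosen with earlier results of these data known. Of each list, the 2 tested genes of highest mean level, genes that passed over all genes and defining markers at 0 were named, and others after their values were seen. With 2 tumours a group, p-values set the group difference against a spread estimated from these tumours only, with information shared across the tested genes. Libraries of 1 group differed by far more than sampling noise (chi-square per degree of freedom 23.9 and 26.4). Pairs across the groups gave between 22.6 (dinutuximab tumour 4 and sEV tumour 4) and 35.8 (dinutuximab tumour 4 and sEV tumour 3). The closest pair of libraries was thus 1 of different groups. Some neuroblastoma markers are not reported here.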

Additional observations from a re-analysis of the deposited data

How the results depend on the processing

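The count of genes called by edgeR over all genes was the result that moved most. It was 0 higher and 0 lower as reported, with limma-voom, with the 3 other scalings and with a filter of 1 CPM, 17 and 38 with DESeq2, and 107 and 155 without a filter on low counts. With the tumour number as a replicate block it was 21 and 46. Clec10a and Mgl2 were among the calls in these 3 settings, Lyve1 without the filter and with the block, and Cd209f (lower) without the filter. The list was chosen on this contrast, so repeated calls on the same 4 tumours are no support for its genes. DESeq2 called 0.123% of all tested genes higher and 0.275% lower. Shares are not given for the fits without the filter and with the block. The correlation of same-numbered tumours' deviations over the tested genes was 0.0659, and the labels do not say that a number marks a pair. When each tumour was left out in turn, between 0 and 160 genes were called higher and between 0 and 156 lower: 48 and 84 without sEV tumour 3, 160 and 156 without sEV tumour 4, and 0 without either dinutuximab tumour. The log2 fold change of Clec10a lay between 0.85 and 1.24 whichever tumour was left out. Without sEV tumour 4 the value was 1.26 for Cd163, 1.77 for Lyve1, 0.68 for F13a1 and -1.96 for Retnla. For Cd209f it was -2.69 without sEV tumour 3 and -2.80 without sEV tumour 4. Cd209f had 63 counts in dinutuximab tumour 3 and 6, 5 and 6 in the other tumours. Its lower values and its call without the filter thus rest on 1 library and are no result for the group. The cause of the varying count of calls was not tested. A group of 1 tumour borrows the spread of the 2 in the other group.

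The median log2 fold change of the tested genes of the list (0.39) lay between 0.37 and 0.43 under the other scalings, tests, filters and the block, and between 0.15 (without sEV tumour 3) and 0.61 (without sEV tumour 4) when 1 tumour was left out. The number of its genes whose groups did not overlap (5) was between 7 and 10 with 1 tumour left out. That count includes Cd209f where it passed the filter, and fewer tumours overlap less often. The share over all tested genes was not taken with 1 tumour left out, so these counts say nothing particular about the list. Without sEV tumour 3, the log2 fold changes of Cd163 (-0.15) and F13a1 (-0.08) turned negative. The median relative to general macrophage genes (0.13) lay between -0.15 (without that tumour or dinutuximab tumour 4) and 0.42 (without sEV tumour 4), with 0.32 without dinutuximab tumour 3. Retnla lay between -0.57 and -0.0001 over the other settings. Levels below about 1 CPM, as of Cd209f, rest on too few counts to compare.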
